A study of Homo sapiens with 20 samples.

Results

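The genes described here are those whose transcripts were at least 1.5-fold lower with estradiol (E2) than with vehicle after 24 h in SUM44 cells, while the difference after 3 h was small. This established line comes from a human invasive lobular carcinoma of the breast. They were chosen from the measured values. A gene is a member when its 24 h difference (E2 minus vehicle, means of log2 expression) was at or below -0.585, which is 1.5-fold lower. Its 3 h difference also had to lie within 0.3 of 0, and its mean in 24 h vehicle had to be at least 6.5. By this rule 187 of 11963 genes are members, each read on the probe set that was brightest on average across the 20 arrays. The 3 h and 24 h differences and the 24 h vehicle level are therefore given below as descriptions, with no test.

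Cells grew for 3 days without hormone, in medium whose serum had been stripped with charcoal, and then received 1 nM E2, or ethanol as vehicle, and were taken after 3 h or 24 h. The groups, with 4 arrays each, are 0 h baseline (deprived cells before any addition), 3 h E2, 3 h vehicle, 24 h E2 and 24 h vehicle, and all 5 share the hormone deprivation. The replicates are biological quadruplicates according to the series text, all of this 1 line. That text and the sample text give different shares of serum, and the treatment field of the 24 h E2 arrays reads baseline where their titles name E2. The titles were followed. The values are log2 expression from Affymetrix human arrays as the authors normalised them, so a change in total RNA per cell would not appear. Vehicle and time in culture cannot be told apart in a comparison of vehicle with baseline.

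E2 acts through the estrogen receptor, a nuclear receptor that binds DNA and recruits coactivators or corepressors. Genes that respond within a few hours are commonly direct targets. Genes that respond only after many hours are commonly reached through intermediate factors, through loss of a stable transcript or through a change in cell state such as entry into the cell cycle. These arrays do not separate such routes. Cells that express a gene less and fewer cells that express it cannot be told apart in RNA from a whole culture.

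Arrays correlated at 0.998 to 0.999 within groups and at 0.989 to 0.998 between groups. ESR1, the estrogen receptor gene, stood at 13.39 in 24 h E2 and 13.56 in 24 h vehicle, and GREB1, a known estrogen-induced gene, had a 24 h difference of 2.41. TFF1 and PGR, further estrogen target genes chosen as checks, had smaller 24 h differences of 0.14 and 0.72. PGR was dim, at 4.99 in 24 h E2 and 4.27 in 24 h vehicle. CDH1, the E-cadherin gene whose protein is typically lost in lobular carcinoma, stood at 9.28 in 24 h E2 and 9.11 in 24 h vehicle. The luminal keratin genes KRT8 and KRT18 stood at 13.53 and 13.98 in 24 h E2. Among 35 estrogen-induced genes of ductal lines 0 were members, and 30 of them had all 24 h E2 arrays above all 24 h vehicle arrays (all genes 18.8%). The signal of ACTB probes near the 3' end minus that near the 5' end was 0.384 ± 0.014 in 24 h E2 and 0.397 ± 0.032 in 24 h vehicle. For GAPDH it was -0.148 ± 0.013 in 24 h E2 and -0.117 ± 0.032 in 24 h vehicle (log2, SD, n = 4 each).

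Most members were lower by less than 2-fold, while a few were lower by far more. Their 24 h differences ran from -3.10 to -0.59 with a median of -0.81, where the median over all genes was 0.02. At least 2-fold lower were 54 members, and at least 4-fold lower were 7. All 187 members had every 24 h E2 array below every 24 h vehicle array, as had 22.5% of all genes, but the rule used this contrast and nothing is read from the count. Of all genes 398 met the 24 h limit alone. Among these, 29 were left out for a low vehicle level, 172 because they were already lower by 0.3 or more at 3 h and 10 because they were higher by as much.

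**Figure D1:**
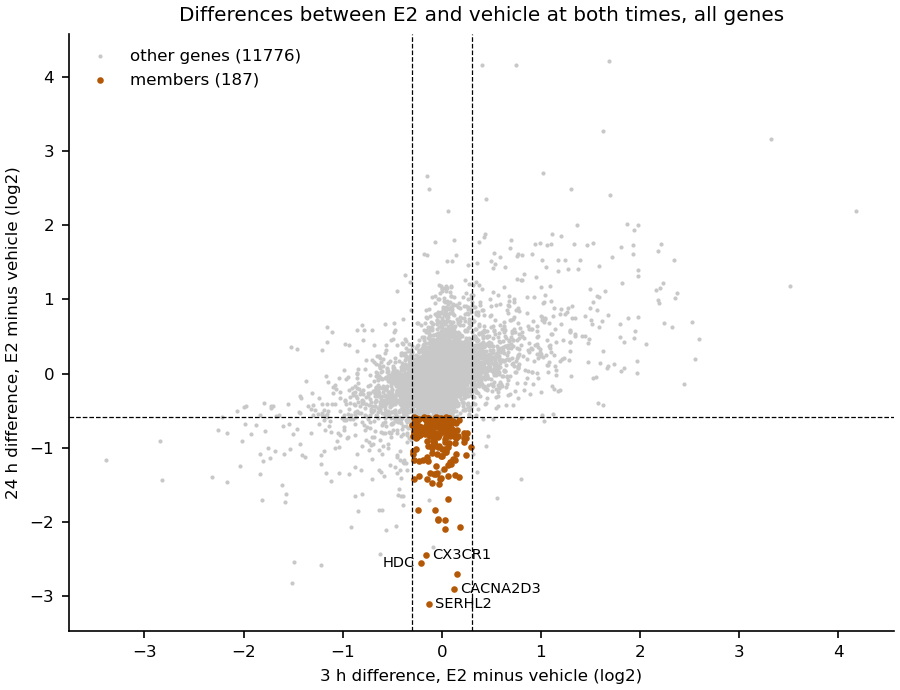
Each point is a gene, placed by its E2 minus vehicle difference at 3 h (horizontal) and 24 h (vertical), in log2 units and with 4 arrays a group. Dashed lines mark the limits of the rule, and the 187 members (brown) fill the strip below -0.585, down to SERHL2 at -3.10.

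The 3 h differences of the members spread to both sides of 0. They were below 0 in 112 members and above 0 in 75, with a median of -0.04. All 3 h E2 arrays lay below all 3 h vehicle arrays in 42 members (all genes 17.2%) and above them in 18 (all genes 13.4%). Since the rule limits this difference, the counts describe how the members sit inside the limit and are read no further.

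SERHL2, CACNA2D3, ATP8A2, HDC, CX3CR1, STK32B and ALB were the 7 members at least 4-fold lower. The groups of genes described from here on, other than the 19 lists near the end, were gathered after the values were seen and carry no test. SERHL2, which encodes a serine hydrolase-like protein, had log2 levels of 9.06, 9.03, 8.93 and 8.93 in 24 h E2, against 12.03, 12.08, 12.10 and 12.14 in 24 h vehicle. The baseline arrays read 11.85, 11.79, 11.73 and 11.75, and the 3 h arrays lay from 11.57 to 11.71 with E2 and from 11.65 to 11.82 with vehicle. The 24 h vehicle arrays lay above all baseline arrays, by 0.31 in the means. The 24 h E2 arrays were below the other 16, and the difference was -3.10, or 8.57-fold lower. This probe set may cross-hybridise with near-identical sequences. A second SERHL2 probe set, which carries the same caveat, gave a 24 h difference of -2.95.

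CACNA2D3, an auxiliary subunit of voltage-gated calcium channels, read 5.04, 4.81, 5.01 and 5.05 in 24 h E2, against 7.86, 7.69, 8.01 and 7.96 in 24 h vehicle and 7.94, 7.99, 7.87 and 7.80 at baseline. At 3 h both arms were a little below baseline, from 7.52 to 7.66 with E2 and from 7.44 to 7.55 with vehicle. Only the 24 h E2 mean, 4.98 ± 0.11 (SD, n = 4), was under 6.11, the level below which the lowest 25% of genes lie, so the size of the 7.48-fold difference is less certain. ATP8A2, a flippase that moves phospholipids across membranes, read 6.61, 6.47, 6.33 and 6.64 in 24 h E2, against 9.18, 9.28, 9.14 and 9.27 in 24 h vehicle and 8.91, 8.79, 8.81 and 8.79 at baseline. Its other probe set had a 24 h difference of -2.16. STK32B, a serine/threonine kinase gene, read 7.73, 7.59, 7.55 and 7.74 in 24 h E2, against 9.74, 9.66, 9.86 and 9.71 in 24 h vehicle and 9.70, 9.64, 9.67 and 9.59 at baseline. In all 3 genes the 24 h E2 arrays did not overlap any other group.

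HDC and DDC encode decarboxylases that make amines, histamine from histidine and dopamine or serotonin from their precursors. HDC read 7.17, 7.08, 7.17 and 7.09 in 24 h E2, against 9.68, 9.63, 9.70 and 9.72 in 24 h vehicle and 8.89, 8.86, 8.93 and 8.89 at baseline. The vehicle arrays were all above the baseline arrays and the E2 arrays all below them, so the 5.87-fold difference had a part on each side of the baseline, -1.76 for E2 and 0.79 for vehicle. DDC read 6.85, 6.49, 6.68 and 6.48 in 24 h E2, against 8.51, 8.57, 8.70 and 8.60 in 24 h vehicle and 8.25, 8.38, 8.27 and 8.35 at baseline. Its vehicle mean lay 0.28 above baseline and its E2 mean at -1.69. A dimmer DDC probe set, at 6.27 in 24 h vehicle, gave -0.19 and its arrays overlapped. MAOA, which oxidises such amines, was the other member among 14 genes of amine synthesis and breakdown, with -0.64. MAOB and HNMT, which degrade amines and histamine, were not members and had 24 h differences of -0.41 and -0.34, while TH, which makes the dopamine precursor, had 0.60.

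**Figure D2:**
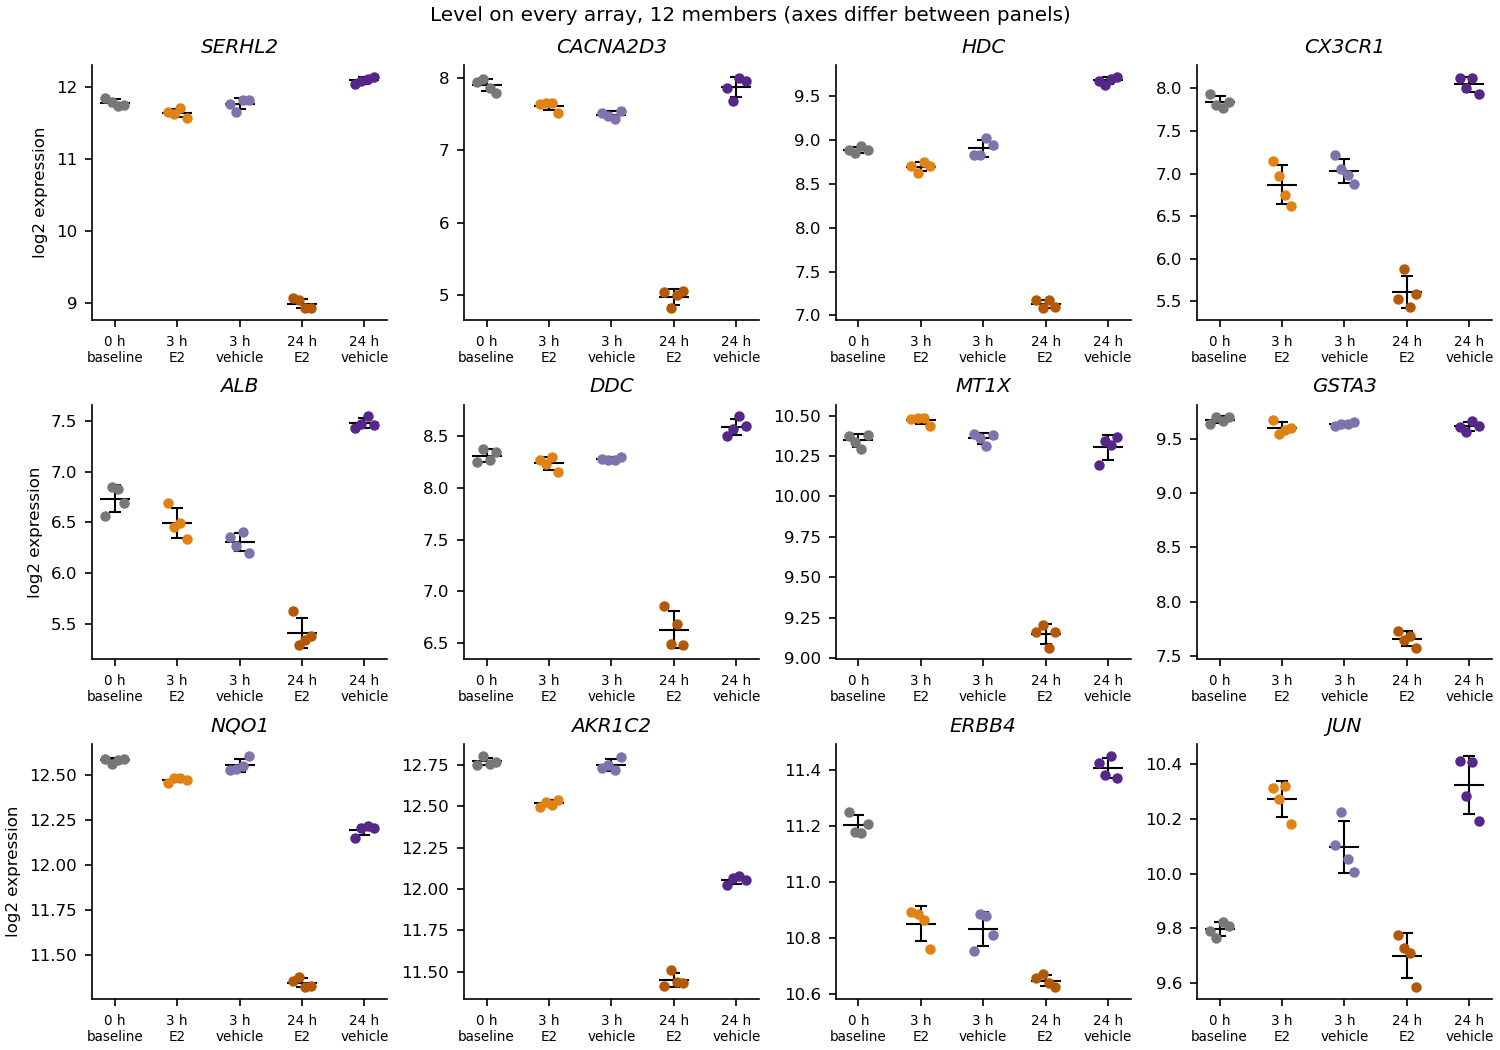
Log2 expression on each of the 20 arrays for 12 members, by group, with the mean and SD of 4 arrays in black and an axis of its own for each panel. In GSTA3 only the 24 h E2 arrays stand apart, in SERHL2, HDC and ALB the 24 h vehicle arrays also lie above baseline, in AKR1C2 and NQO1 both 24 h arms lie below it, and in JUN the 24 h vehicle arrays lie above it.

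CX3CR1, the receptor of the chemokine fractalkine, read 5.53, 5.88, 5.44 and 5.58 in 24 h E2, against 8.12, 8.01, 8.12 and 7.94 in 24 h vehicle. At 3 h it read 7.15, 6.97, 6.74 and 6.62 with E2, against 7.22, 7.05, 6.99 and 6.88 with vehicle, while baseline read 7.94, 7.81, 7.77 and 7.84. Both 3 h arms overlapped each other and lay wholly below baseline. At 24 h the vehicle arrays were back at or above the baseline level, and the E2 arrays were lower still, with a mean under 6.11. CCR2, another chemokine receptor gene and the only other member among 21, had -0.85 at 24 h and the same order of group means. These were 6.68 in 24 h E2, 6.69 in 3 h E2, 6.95 in 3 h vehicle, 7.28 at baseline and 7.53 in 24 h vehicle. Unlike in CX3CR1, the 24 h E2 arrays of CCR2 overlapped its 3 h E2 arrays.

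ALB and AFP, the neighbouring genes of serum albumin and alpha-fetoprotein, are best known from liver. ALB read 5.62, 5.29, 5.34 and 5.37 in 24 h E2, against 7.43, 7.47, 7.54 and 7.46 in 24 h vehicle and 6.56, 6.85, 6.83 and 6.69 at baseline. At 3 h it read 6.33 to 6.69 with E2, against 6.20 to 6.40 with vehicle. The highest level of ALB was thus in 24 h vehicle and the lowest in 24 h E2, with a mean of 5.41 ± 0.15 (SD, n = 4) that is under 6.11. The other ALB probe sets were dim, at 4.08 and 4.22 in 24 h vehicle, and gave -0.06 and 0.24. AFP was at 6.35 ± 0.13 in 24 h E2 and 7.25 ± 0.06 in 24 h vehicle (SD, n = 4 each), a difference of -0.90.

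Genes of glutathione and redox metabolism formed a group in which the 24 h E2 level was low and the vehicle level was at or below baseline. GSTA3, a glutathione transferase that also isomerises steroid precursors, read 7.73, 7.65, 7.68 and 7.57 in 24 h E2, against 9.61, 9.57, 9.67 and 9.62 in 24 h vehicle and 9.64, 9.70, 9.66 and 9.70 at baseline. The other 4 groups overlapped in part and only 24 h E2 stood apart, 3.89-fold lower than vehicle. GPX2, a glutathione peroxidase, had -1.34 and GSTA4, which conjugates products of lipid peroxidation, had -0.64. These 3 were the members among 23 glutathione transferase and peroxidase genes, whose median 24 h difference was -0.02.

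NQO1, a quinone reductase whose gene is a standard target of the transcription factor NRF2, read 11.35, 11.38, 11.32 and 11.33 in 24 h E2, against 12.15, 12.20, 12.22 and 12.20 in 24 h vehicle and 12.59, 12.56, 12.58 and 12.59 at baseline. Both 24 h arms were below baseline without overlap, E2 by more than vehicle. Its other probe sets gave -0.94 and -1.04. AKR1C2, which reduces ketosteroids including dihydrotestosterone, read 11.42, 11.51, 11.44 and 11.43 in 24 h E2, against 12.02, 12.07, 12.08 and 12.05 in 24 h vehicle and 12.75, 12.81, 12.76 and 12.77 at baseline. The larger share of its departure from baseline was common to both arms, with -1.32 for E2 and -0.72 for vehicle. At 3 h AKR1C2 read 12.50, 12.52, 12.51 and 12.54 with E2, against 12.73, 12.75, 12.72 and 12.80 with vehicle, so it was already lower without overlap but inside the 3 h limit. Its close relatives AKR1C1 and AKR1C3 had 24 h differences of -0.55 and -0.80 and 3 h differences of -0.22 and -0.35, and the nearly identical copies cannot be separated with certainty on this array.

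PIR and TKT, genes of an iron-binding nuclear protein and of transketolase, were the other members among 17 NRF2-linked genes, with -0.63 and -0.59. The group's median difference was -0.27 at 24 h and -0.03 at 3 h. Of the 17, 10 had all 24 h E2 arrays below vehicle (all genes 22.5%) and 4 had them above (all genes 18.8%). The highest 24 h difference in the group was 0.26. SLC7A11, the cystine carrier, was not a member and had -1.43 at 3 h and -0.52 at 24 h, and TXNRD1, thioredoxin reductase, had -1.25 at 3 h and -0.54 at 24 h. NFE2L2, which encodes NRF2, had a 24 h difference of 0.17.

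Metallothioneins, small cysteine-rich proteins that bind zinc and copper, supplied 6 of the members out of 10 measured genes. All but MT1HL1 lie together on chromosome 16, and metallothionein promoters are known for metal response elements, bound by the zinc-sensing factor MTF1. The 250 bases before the RefSeq start of 3 of the members are shown because they hold more cores of this element than nearly all other promoters. No promoter window was available for MT1G, MT1F or MT1HL1, so their cores were not counted. Capitals mark the cores TGCACNC or TGCGCNC on either strand. They come from RefSeq (GRCh38.p14, all on the + strand), at chr16:56608334-56608583 for MT2A, chr16:56682220-56682469 for MT1X and chr16:56669564-56669813 for MT1H.
MT2A: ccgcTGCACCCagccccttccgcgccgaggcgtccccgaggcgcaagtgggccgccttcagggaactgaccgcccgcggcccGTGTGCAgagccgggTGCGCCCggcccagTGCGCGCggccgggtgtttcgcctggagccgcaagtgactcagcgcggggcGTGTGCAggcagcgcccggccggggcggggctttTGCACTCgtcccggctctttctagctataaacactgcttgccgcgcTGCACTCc
MT1X: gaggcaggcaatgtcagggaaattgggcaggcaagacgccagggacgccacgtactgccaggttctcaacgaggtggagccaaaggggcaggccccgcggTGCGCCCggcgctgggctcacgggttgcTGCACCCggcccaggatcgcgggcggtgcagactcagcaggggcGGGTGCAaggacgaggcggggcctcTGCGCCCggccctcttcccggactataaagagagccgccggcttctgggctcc
MT1H: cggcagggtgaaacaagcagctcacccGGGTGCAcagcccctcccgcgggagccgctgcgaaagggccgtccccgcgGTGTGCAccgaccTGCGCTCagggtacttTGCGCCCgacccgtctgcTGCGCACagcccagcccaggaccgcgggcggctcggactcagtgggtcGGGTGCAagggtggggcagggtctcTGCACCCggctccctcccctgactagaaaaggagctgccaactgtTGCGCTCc

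MT2A held 7 such cores in this window, MT1X 4 and MT1H 8. MT4, a metallothionein gene that was not a member, held 3. The count of 4 used next is that of MT1X, the lowest of the genes shown. Among 9563 genes with a known promoter window, 44 held at least 4, which is 0.46%, and among the members these were the same 3 genes. The core in any number was no more frequent among the 153 members with a promoter (30.7%) than among all (31.1%). A match of letters is not a site in use.

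The metallothionein members were slightly higher with E2 at 3 h and lower at 24 h. MT1X read 9.16, 9.21, 9.06 and 9.17 in 24 h E2, against 10.19, 10.34, 10.32 and 10.37 in 24 h vehicle and 10.37, 10.34, 10.29 and 10.38 at baseline. At 3 h it read 10.48, 10.49, 10.48 and 10.43 with E2, against 10.39, 10.36, 10.31 and 10.38 with vehicle. MT2A read 10.58, 10.68, 10.72 and 10.75 in 24 h E2, against 11.55, 11.65, 11.66 and 11.63 in 24 h vehicle and 11.71, 11.69, 11.63 and 11.69 at baseline, and at 3 h 11.78, 11.81, 11.86 and 11.77 with E2, against 11.70, 11.66, 11.62 and 11.73 with vehicle. In both genes the 3 h E2 arrays were all above the 3 h vehicle arrays, by 0.11 and 0.13 in the means, and the 24 h E2 arrays were all below every other array.

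MT1G, MT1F, MT1H and MT1HL1 had 24 h differences of -1.09, -0.84, -0.80 and -0.80 and 3 h differences of 0.15, 0.16, 0.13 and 0.08. All 6 members are read on probe sets marked for cross-hybridisation, so they are not independent of each other and which copies changed is uncertain. A dim MT1G probe set without that mark, at 4.99 in 24 h vehicle, gave 0.05. The 4 metallothionein genes that were not members were MT1E with -0.24, MT1M with -0.15, MT3 with 0.10 and MT4 with 0.10. MTF1 itself had a 24 h difference of 0.01.

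**Figure D3:**
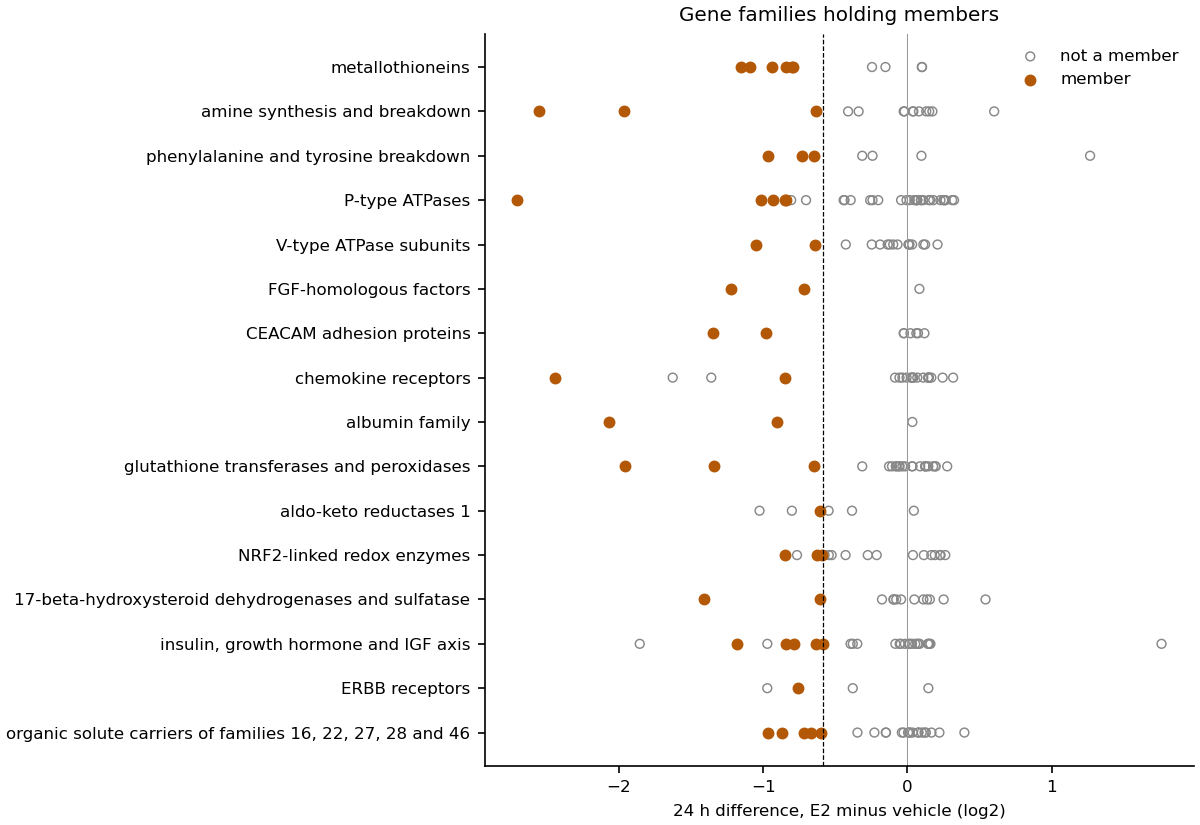
Each point is a gene placed by its 24 h difference (E2 minus vehicle, log2, means of 4 arrays a group), by family, with members filled and other measured genes open. The dashed line marks the rule's limit of -0.585, and the families were gathered after the values were seen, so no test was made of them.

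Steroid and aromatic amino acid metabolism were represented by a few enzymes each. HSD17B2, which oxidises estradiol to the weaker estrone, read 9.06, 9.04, 8.94 and 8.80 in 24 h E2, against 10.42, 10.37, 10.36 and 10.32 in 24 h vehicle and 10.12, 10.15, 10.14 and 10.10 at baseline. The 24 h E2 arrays lay below and the 24 h vehicle arrays above every baseline array, and the difference was 2.66-fold. STS, steroid sulfatase, which frees steroids from their sulfates, had -0.60, and its further probe sets gave -0.59, -0.68 and -0.43. These were the members among 13 genes of 17-beta-hydroxysteroid dehydrogenases and the sulfatase, whose median was -0.04. Of the 13, 2 had all 24 h E2 arrays below vehicle (all genes 22.5%) and 4 had them above (all genes 18.8%), the highest being HSD17B7 with 0.54. HGD, homogentisate dioxygenase of the tyrosine breakdown pathway, read 8.90, 8.98, 8.80 and 8.88 in 24 h E2, against 9.83, 9.89, 9.84 and 9.89 in 24 h vehicle and 9.92, 9.98, 9.96 and 9.85 at baseline. Vehicle and baseline overlapped and 24 h E2 was lower than both. Its 2 further probe sets gave -0.62 and -0.87. FAH, the last enzyme of that pathway, had -0.65 and QDPR, which regenerates the cofactor of phenylalanine hydroxylase, had -0.73. GSTZ1, the enzyme between HGD and FAH, had -0.31 and was not a member, while TAT, which starts tyrosine breakdown, had 1.27.

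The receptor genes ERBB4, INSR and GHR were lower with E2 than with vehicle at 24 h, and their vehicle arm lay above baseline. ERBB4, a receptor tyrosine kinase for neuregulins, read 10.66, 10.67, 10.64 and 10.62 in 24 h E2, against 11.43, 11.38, 11.45 and 11.37 in 24 h vehicle and 11.25, 11.18, 11.17 and 11.21 at baseline. At 3 h it read 10.89, 10.89, 10.87 and 10.76 with E2, against 10.76, 10.89, 10.88 and 10.81 with vehicle, so both 3 h arms were below baseline and overlapped each other. Its relatives ERBB2 and ERBB3 were lower at both times, with -0.80 and -0.60 at 3 h and -0.97 and -0.38 at 24 h.

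INSR, the insulin receptor gene, read 10.18, 10.22, 10.24 and 10.20 in 24 h E2, against 10.87, 10.77, 10.85 and 10.88 in 24 h vehicle and 10.56, 10.45, 10.44 and 10.44 at baseline. Its arms were on opposite sides of baseline with no overlap. GHR, the growth hormone receptor gene, read 8.60, 8.48, 8.55 and 8.43 in 24 h E2, against 9.70, 9.65, 9.80 and 9.63 in 24 h vehicle and 9.52, 9.54, 9.51 and 9.54 at baseline, with the same order and no overlap. CISH, a feedback inhibitor of cytokine receptors, had -0.84, also with possible cross-hybridisation. IGFBP5 and IGFBP3, which bind insulin-like growth factors, had -0.79 and -0.59, and IGFBP4, of the same family, had 1.76. The 4 further IGFBP5 probe sets gave larger differences than the brightest, from -1.54 to -1.08. These 5 genes were the members among 26 of this axis, whose median was -0.03.

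Ion transport and adhesion genes complete the larger groups. KCNMA1, the large-conductance calcium-activated potassium channel, had -1.39 with a second probe set at -1.40 and a dim one at -0.07. FGF13, a cytosolic partner of sodium channels rather than a secreted factor, read 10.46, 10.43, 10.39 and 10.46 in 24 h E2, against 11.65, 11.64, 11.74 and 11.59 in 24 h vehicle and 11.66, 11.63, 11.62 and 11.67 at baseline. Only its 24 h E2 arrays stood apart from the baseline arrays at that time, and the related FGF12 had -0.72. Among 34 genes of P-type ATPases 5 were members: beside ATP8A2 these were the flippase gene ATP8A1 (-1.02), the calcium pumps ATP2A3 (-0.93) and ATP2C2 (-0.85) and the copper pump ATP7B (-0.84).

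CEACAM5, the cell surface glycoprotein known as carcinoembryonic antigen, read 8.88, 8.93, 8.83 and 8.76 in 24 h E2, against 10.14, 10.23, 10.21 and 10.22 in 24 h vehicle and 10.55, 10.40, 10.51 and 10.46 at baseline. Its vehicle arrays were below the baseline arrays and its E2 arrays lower again. Its neighbour CEACAM6 had -0.98, and the 6 other CEACAM genes measured were not members. A dimmer CEACAM5 probe set, at 6.24 in 24 h vehicle, gave 0.09. SNAP25, a membrane fusion protein of secretory vesicles, had -1.42 with means of 7.84 in 24 h E2, 9.26 in 24 h vehicle and 9.51 at baseline. A second SNAP25 probe set, at 7.61 in 24 h vehicle, gave -0.56.

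Others among the 30 lowest included the transmembrane gene TMEM45A (-1.97), the homeodomain-only gene HOPX (-1.84), the sialyltransferase gene ST6GAL1 (-1.83), the scaffold gene IQGAP2 (-1.69) and BCAS1 (-1.48). They also included the endoplasmic reticulum calcium-binding gene RCN1 (-1.47), the iron reductase gene STEAP3 (-1.42), ARHGEF6, an exchange factor for Rac (-1.42), the heparan sulfate enzyme gene NDST4 (-1.38) and CATSPERB of the sperm calcium channel (-1.38). AOX1, an aldehyde oxidase, had -1.37 with a second probe set at -0.59, GATM of creatine synthesis -1.35, ASB9 -1.34, the adenosine deaminase ADA2 -1.29, CLCA2 -1.25 and the protease inhibitor CSTA -1.23. CATSPERB and ALB were among 8 members whose 24 h E2 mean was under 6.11.

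The comparison with the baseline asked on which side of it the members parted. Relative to baseline the median member stood at -0.75 in 24 h E2 and at 0.10 in 24 h vehicle, where all genes stood at -0.01 in both. By array the member medians were -0.70, -0.74, -0.76 and -0.80 in 24 h E2, against 0.09, 0.09, 0.12 and 0.10 in 24 h vehicle. At 3 h they were -0.09, -0.11, -0.10 and -0.18 with E2, against -0.08, -0.09, -0.08 and -0.08 with vehicle. The median member was thus slightly below baseline in both arms at 3 h, and the arms lay on opposite sides of it at 24 h.

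**Figure D4:**
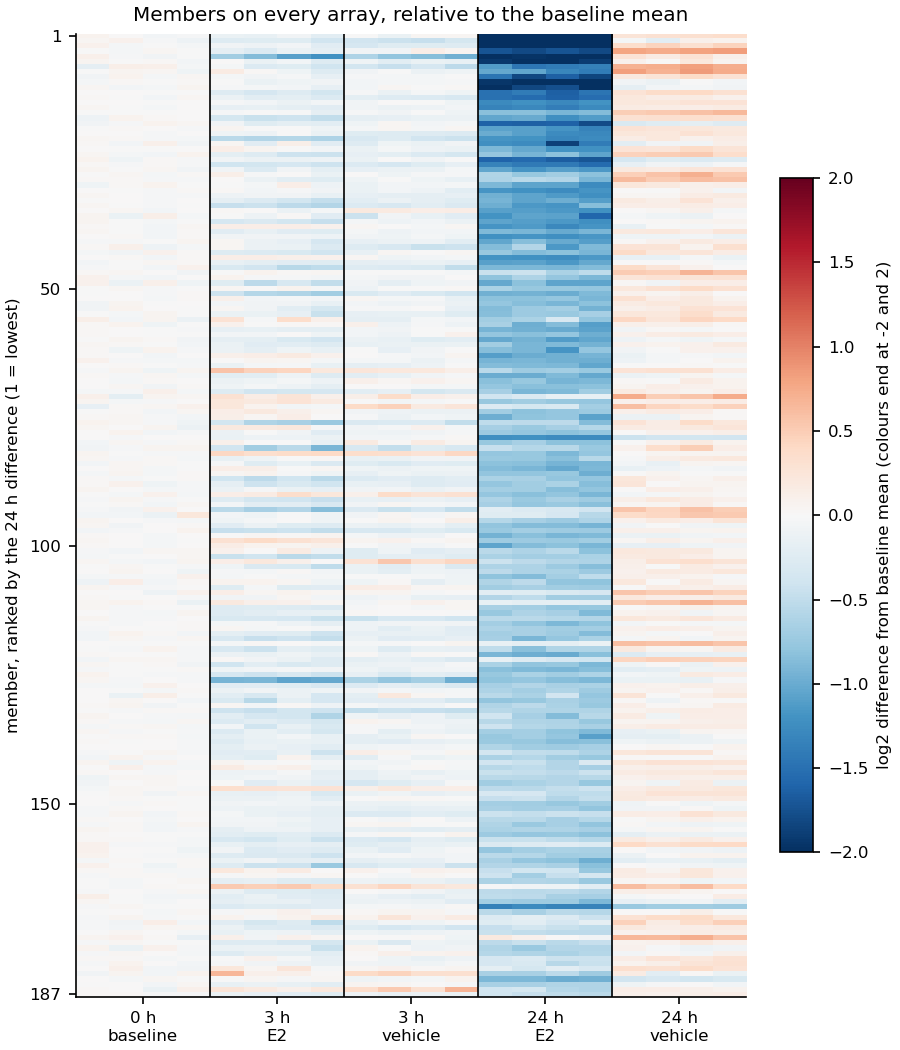
Each row is a member, ranked by its 24 h difference, and each column an array, with colour for the log2 difference from the mean of the 4 baseline arrays. The 24 h E2 columns are blue in nearly every row, the 24 h vehicle columns are mixed with more red than blue, and the 3 h columns of both arms are mostly pale.

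All 24 h E2 arrays lay below all baseline arrays in 184 members (all genes 22.1%). The 24 h vehicle arrays lay wholly above baseline in 86 members, 46% against 11.5% of all genes, and wholly below it in 13 (all genes 8.22%). These groups share arrays with the rule, so the counts are descriptions. In 83 members E2 was below and vehicle above baseline, in 88 E2 was below while vehicle overlapped baseline, and in 13 both arms were below. In the 3 remaining members, PATJ, JUN and CYP4B1, vehicle was above baseline and E2 overlapped it. These joint patterns were not counted over all genes, so nothing is read from their numbers.

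The 3 h vehicle arrays, which set only the 3 h difference in the rule, lay wholly below baseline in 83 members, 44.4% against 13.3% of all genes, and wholly above it in 12 (all genes 12.1%).

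The midpoint of the 24 h arms was then set against baseline. For a gene lower with E2, a midpoint below baseline means that the E2 arm is the farther of the pair from baseline, and a midpoint above it that the vehicle arm is. The rule used both of these arms, and a midpoint below baseline follows from the choice of members wherever vehicle stays at baseline. The 24 h midpoints are therefore a description, given with their standard errors and no p-value, and nothing is read from their counts. The limma calls at 0.05 only sort the members here and are not a test of them. In the limma fit, with Benjamini-Hochberg adjustment over all genes, the midpoint was lower than baseline in 163 members (all genes 14.5%) and higher in 6 (all genes 14.2%). In 18 it did not pass 0.05. The median midpoint was -0.33 over the members and -0.01 over all genes. With no separate cultures named beyond the series text, the fit's errors measure the spread between the arrays of a group.

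**Figure D5:**
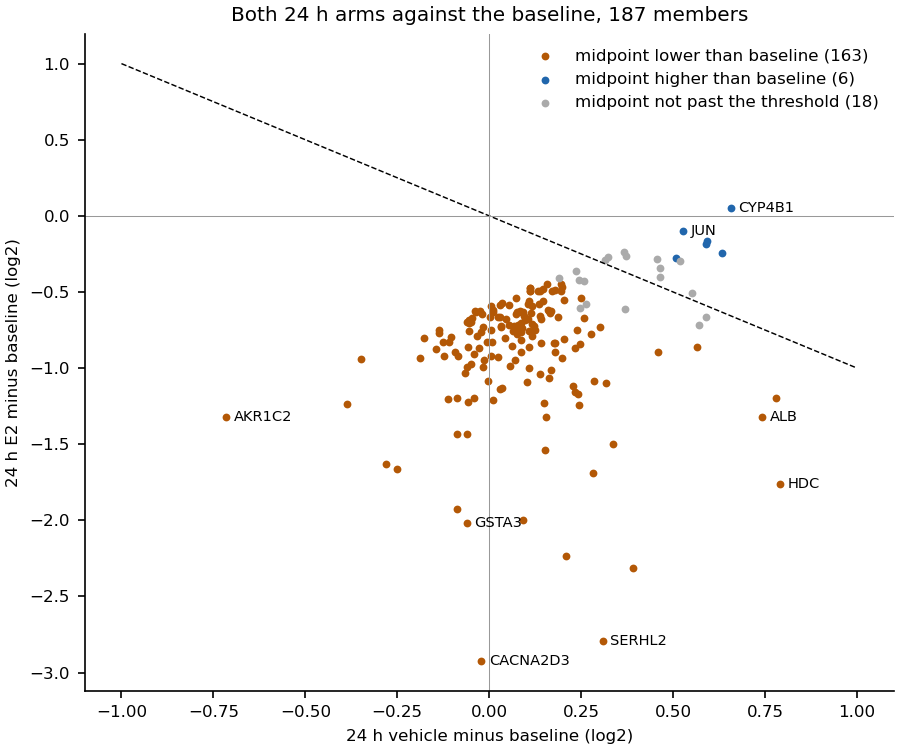
Each point is a member, placed by its 24 h vehicle mean (horizontal) and its 24 h E2 mean (vertical) minus the baseline mean, in log2 units with 4 arrays a group. Colours give the limma call of the midpoint (163 lower, 6 higher, 18 not past the threshold), and on the dashed diagonal it equals the baseline. Most members lie below it, which follows from the choice of members wherever vehicle stays at baseline, and a few, among them JUN and CYP4B1, lie above it.

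The lowest midpoints belonged to CACNA2D3 at -1.47 ± 0.06, SERHL2 at -1.24 ± 0.04, GSTA3 at -1.04 ± 0.03, AKR1C2 at -1.02 ± 0.02 and CX3CR1 at -1.01 ± 0.09, with standard errors of the limma fit and n = 4 arrays a group. HDC at -0.49 ± 0.04 and ALB at -0.29 ± 0.07 were nearer to 0, with their vehicle arm above baseline.

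The 6 higher midpoints were those of CYP4B1, JUN, SCGB1D2, UPK1A, PATJ and RGS5. In CYP4B1, a fatty acid hydroxylase of the cytochrome P450 family, the midpoint was 0.36 ± 0.05. CYP4B1 read 7.95, 7.84, 7.76 and 7.69 in 24 h E2, against 8.43, 8.41, 8.49 and 8.33 in 24 h vehicle and 7.82, 7.83, 7.78 and 7.59 at baseline, so E2 and baseline overlapped and only vehicle stood apart. JUN, a subunit of the transcription factor AP-1, had a midpoint of 0.21 ± 0.05. JUN read 9.78, 9.73, 9.71 and 9.58 in 24 h E2, against 10.41, 10.29, 10.41 and 10.19 in 24 h vehicle and 9.79, 9.77, 9.82 and 9.81 at baseline. At 3 h it was above baseline in both arms, at 10.32, 10.27, 10.32 and 10.18 with E2, against 10.11, 10.23, 10.05 and 10.01 with vehicle. The JUN probe set may cross-hybridise, and its other probe sets gave 24 h differences of -0.51, -0.70 and -0.49.

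SCGB1D2, a small secreted protein of the secretoglobin family, had 0.21 ± 0.02 and UPK1A, a urothelial membrane protein, 0.20 ± 0.04. PATJ, a polarity scaffold of tight junctions, had 0.20 ± 0.07 and RGS5, a regulator of G protein signalling, 0.12 ± 0.03. The limma call for PATJ was lost in 10 of 28 other settings, 7 of them with 1 array left out, and that for JUN was lost on its most variable probe set. ADA2 (-0.07 ± 0.05), CLCA2 (-0.04 ± 0.06), the lipid transporter gene ABCA4 (0.02 ± 0.04) and INSR (0.06 ± 0.03) were among the 18 that did not pass.

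The 3 h midpoint was tested, since the rule used the 3 h arms only to limit their difference and not their distance from baseline. It was lower than baseline in 94 members, 50.3% against 16.2% of all genes, and higher in 11 (all genes 14.3%), while 82 did not pass. The midpoints at both times share the baseline arrays. The median midpoint was -0.10 over the members and -0.02 over all genes. The lowest were CX3CR1 at -0.89 ± 0.09 (limma adjusted p = 1.7e-07) and NUDT6 at -0.87 ± 0.05 (9.1e-11), a nudix hydrolase gene whose transcript overlaps that of FGF2 on the other strand. The highest was JUN at 0.39 ± 0.05 (limma adjusted p = 2.1e-06). Next were SLCO2A1 at 0.36 ± 0.03 (1.5e-08) and IGFBP3 at 0.33 ± 0.06 (0.00042). GATA6, a transcription factor gene of endoderm, followed at 0.31 ± 0.06 (0.00023). None of the metallothionein members passed at 3 h in either direction. Their limma adjusted p ran from 0.13 for MT1X to 0.87 for MT1F.

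The 19 lists of pathway and marker genes are read beside the share of all genes that were members, which was 1.56%. Among 44 interferon response genes only OAS2, a double-stranded RNA sensor, was a member. OAS2 read 6.88, 6.77, 6.78 and 6.60 in 24 h E2, against 7.42, 7.69, 7.83 and 7.47 in 24 h vehicle and 7.26, 7.31, 7.38 and 7.40 at baseline. A second OAS2 probe set, at 6.79 in 24 h vehicle, gave -0.07, and its E2 and vehicle arrays overlapped. The list as a whole had a median 24 h difference of -0.03. In 13 of its genes all 24 h E2 arrays lay below all vehicle arrays (all genes 22.5%). OAS1, another sensor, had -2.43 at 24 h and was outside the 3 h limit with -0.62. Among 35 genes known as estrogen-repressed in ductal lines, BCAS1, GATM and the hypoxia-inducible NDRG1 were members. That list's median was -0.30, and 21 had all 24 h E2 arrays below vehicle (all genes 22.5%).

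SERHL2, CLCA2 and AKR1C2 were the members among 26 androgen-responsive and apocrine genes, whose median was 0.00. DDIT4, an inhibitor of mTOR signalling, MT1X and MT2A were the members among 17 glucocorticoid response genes, whose median was -0.02. Antigen presentation held 1 of 21 (PSMB9) and TGF-beta and BMP signalling 1 of 43 (INHBB). Calcium handling and ion channels held 4 of 41, the channel genes CACNA2D3 and KCNMA1 and the calcium pumps ATP2A3 and ATP2C2. Amine and G protein-coupled receptor signalling held 4 of 30 (HDC, DDC, MAOA and CX3CR1), and adhesion and matrix 2 of 41 (COL4A5 and LAMB1). Lysosome and autophagy held 1 of 46 (GABARAPL1), hypoxia and glycolysis 2 of 29 (DDIT4 and NDRG1), and quiescence and cyclin-dependent kinase inhibitors 0 of 36. Lipid handling held 0 of 43. Of 38 genes of G1/S and replication 0 were members, and 36 had all 24 h E2 arrays above vehicle (all genes 18.8%), with a median of 0.73.

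Markers of other cell types mostly lay under the level that the rule requires. In 24 h vehicle 2 of 10 basal and myoepithelial, 2 of 13 immune and endothelial and 5 of 13 stromal markers reached 6.5, so the rest could not be members. Basal and myoepithelial markers held 0 of 10, immune and endothelial markers 0 of 13, and stromal markers 1 of 13, which was SPARC, a matricellular protein, at 9.69 ± 0.03 in 24 h E2 and 10.80 ± 0.02 in 24 h vehicle (SD, n = 4 each). Their medians were 0.10, 0.05 and 0.11. Of 19 luminal genes only KRT7 was a member.

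Further probe sets of the members gave differences that the rule did not use, but in the same contrast and on the same arrays. That contrast chose the genes, so the counts are descriptions. For 83 members there were 129 of them, and 118 had a 24 h difference below 0. All 24 h E2 arrays lay below all vehicle arrays on 101 (all genes 22.5%) and above them on 2 (all genes 18.8%). Among the 102 whose 24 h vehicle level reached 6.5, 99 were below 0, 93 did not overlap in that direction and 70 reached -0.585. The shares of all genes are over the brightest probe set of each gene. No share was computed over all probe sets at that level, so nothing is read from these counts. The exceptions above 0 in that brighter set were one probe set each of IFT122, NCDN and ZNF277, with 0.18, 0.05 and 0.04. They use the same arrays, so they check the probe and not the replicate.

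Some members lie near each other in the genome. By the RefSeq genes of GRCh38.p14, 46 of the 187 had another member within 1 Mb, in 34 pairs. Apart from the metallothioneins and CEACAM5 with CEACAM6, ALB with AFP and GSTA3 with GSTA4, which are copies of a family, the pairs included HDC with the fatty acid transporter gene SLC27A2, GATM with the nucleoside transporter gene SLC28A2 and with SQOR, and NQO1 with NFAT5. ASB9, CA5B and PIR lie together on the X chromosome. No share of pairs expected for other genes was computed.

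Other short motifs were at about the same frequency in members as in all promoters of 250 bases, both strands searched. The AP-1 site TGANTCA was in 5.23% of 153 members and 4.67% of all 9563. The antioxidant response element core TGACNNNGC, which can overlap it, was in 10.5% of members and 11.9% of all. A single arm of the estrogen response element, GGTCA, was in 25.5% of members and 30.4% of all. Its palindrome, GGTCANNNTGACC, which contains that arm, was in 0 of 153 members and in 2 of all promoters (0.0209%), and nothing about distant sites follows.

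Genes just inside and just outside each limit had nearly equal values. Nearest inside the 24 h limit were MIPEP, IGFBP3 and EFHD1 at -0.59, and nearest outside were SYCP2, MAN2A1 and CERK at -0.58. At the 3 h limit CA5B (-0.30), GALNT14 (0.29) and OAS2 (-0.29) were inside and FRY (-0.30), MAP1B (-0.30) and TLE3 (-0.31) outside. At the level limit SERPINE2 (6.58), TUBAL3 (6.65) and CATSPERB (6.70) were inside, and LEFTY1 (6.49), LTF (6.48) and RNF128 (6.44) outside.

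Most members followed the mean pattern of the set, as the choice of genes favours. The correlation of a member with the mean standardised pattern over the 5 group means had a median of 0.961 and was lowest for CYP4B1 at 0.421, a description, since each member belongs to that mean. Among genes outside the set, those most like it over the 5 means were GSTZ1, the ribosomal protein gene RPL11, the copper chaperone gene ATOX1, NSA2, ZMYM5, PEF1, TPPP, PSCA, ALDH2 and ZFAND6, with Pearson's r from 0.998 for ZFAND6 to 1.000 for GSTZ1. Their 24 h differences were small, from -0.55 for PSCA to -0.11 for TPPP.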

How the data were processed

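RNA of SUM44 cells was measured on 20 Affymetrix human expression arrays, 4 for each of 5 groups named by the sample titles. The authors deposited a log2 value for each probe set. Per the submitters' processing notes it came from RMA in the affy package, with no version given in the sources used here. RMA corrects background, equalises the distributions of all arrays and combines the probes of a set. The number of arrays limits the precision, and no read depth applies.

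Of 22277 probe sets, 62 controls were not used. By the platform annotation 1 symbol stood for 19064, several for 1043 and none for 2108, and 11963 genes were read on their highest single-symbol probe set. The members and lists were chosen with earlier results of these data known, and the gene families were gathered after their values were seen. Named genes are the 30 lowest members, members of the lists, the extreme midpoints, genes next to the limits, list examples by largest difference, and 10 genes of like pattern. Family genes and the members whose arrays are printed were added after seeing the values.

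Midpoints were fitted in R 4.3.3 by limma 3.58.1, two-sided, with lmFit and eBayes on all arrays and no block, with Benjamini-Hochberg adjustment over 11963 genes and a threshold of 0.05. Only the 3 h midpoints are given with p-values, because the rule used both 24 h arms. The fit of the 24 h midpoint was tried on simulated data with independent normal noise for each gene. It recovered 32% of 1.1-fold, 90% of 1.25-fold and 100% of 1.5-fold shifts. The 3 h midpoint was not simulated. Alternatives covered normalisation, probe set choice, arrays left out, limits, the groups fitted, a replicate block, dim genes, the variance prior and array weights. Same-letter arrays mostly did not deviate together: 6 of 40 pair correlations were over 0.1, the highest, 0.370, between the D arrays of 24 h E2 and 3 h E2. Promoter sequences came from RefSeq (GRCh38.p14) and matched 153 members and 9563 genes by symbol. No columns of other samples were present.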

Additional observations from a re-analysis of the deposited data

Results flagged for a closer look

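The arrays of the 23 members shown by array, and the median over members, were examined in each of the 5 groups. In 4 of these 120 sets of 4 arrays, 1 array lay far from the other 3, and chance gives about 1 such set in 20. CACNA2D3 read 7.52 on the 3 h E2 array D, where the others read 7.65 to 7.66. ATP8A2 read 8.49 on the 3 h vehicle array A, where the others read 8.57 to 8.59. MT1X read 10.43 on the 3 h E2 array D, where the others read 10.48 to 10.49. INSR read 10.56 on the baseline array A, where the others read 10.44 to 10.45.

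In 7 of the 23 members shown by array, every vehicle array lay above baseline at 24 h and every one below it at 3 h, a difference between the times that was not tested. The 23 were picked for display after their values were seen. The same held for 38 of all 187 members (20.3%) and for 311 of all 11963 genes (2.6%). The rule used the vehicle arrays of both times and favours a high 24 h vehicle level, so these shares are descriptions. The vehicle minus baseline differences at 24 h and at 3 h were 0.39 and -0.27 for ATP8A2, 0.21 and -0.81 for CX3CR1, 0.74 and -0.42 for ALB, 0.20 and -0.37 for ERBB4, 0.37 and -0.18 for INSR, 0.17 and -0.19 for GHR, and 0.26 and -0.34 for OAS2.

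Probe sets that the rule does not use held the same pattern. Of 2108 with no gene symbol, 14 met all 3 limits, with 24 h differences down to -2.60. Of 1043 with several symbols, 13 did, down to -2.97.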

How the results depend on the processing

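The set of 187 members held 54 genes with a 24 h limit of -1, 147 with a 3 h limit of 0.2 and 205 with no limit on level. Centring each array gave 174 genes (168 shared with the 187), the mean of all probe sets 163 (158 shared) and the most variable probe set 200 (184 shared). With 1 array left out at a time it held from 176 to 202.

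The members whose 24 h midpoint was lower than baseline numbered 163, from 157 to 163 with 1 array left out and from 160 to 164 under the other settings. Those with a higher one numbered 6, from 4 to 7 and from 4 to 6. Both of these 24 h counts are descriptions, since the rule used both 24 h arms. At 3 h the lower ones numbered 94, from 82 to 97 and from 88 to 101, and the higher ones 11, from 9 to 12 and from 10 to 12. Over all genes 3435 midpoints passed at 24 h (2877 to 3555 and 3282 to 3901) and 3646 at 3 h (3235 to 3738 and 3491 to 4111). With the replicate letter as a replicate block, 164 members were lower and 5 higher at 24 h, and 94 lower and 10 higher at 3 h. The letters were not taken as pairs, since not every same-letter pair deviated together (correlations from -0.245 to 0.370).

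The call of the 24 h midpoint was followed for 36 named genes under 28 settings. Of these results 990 kept their direction and side of the threshold, 18 lost the call and 0 turned round. Since the rule used both 24 h arms, a lower midpoint follows from the choice of members wherever vehicle stays at baseline. The counts therefore describe how the sorting of these genes depends on the settings and test nothing. The lost calls were those of PATJ (10 settings), TMEM45A (7) and JUN (1), and the cause was not tested. Signals near background limit the size of a difference for the 8 members under 6.11 in 24 h E2, and near-identical copies limit the 14 read on probe sets marked for cross-hybridisation.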
